A study of Mus musculus with 23 samples.

Results

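The genes of cholesterol synthesis and sterol handling were followed in RNA-seq of whole mouse hippocampus. The set holds 32 genes, chosen by symbol for their role, of the 52636 genes counted. It comprises 8 genes of the mevalonate arm, 11 genes from squalene to cholesterol, 5 genes of SREBP control, 6 genes of sterol transfer, storage and clearance, and 2 LXR receptors. The symbols alone chose them, with no measured value. There were 6 P301S hypoxia, 5 P301S normoxia, 6 WT hypoxia and 6 WT normoxia libraries. P301S mice carry a human tau transgene with a mutation found in familial frontotemporal dementia, and by the title of the series the exposure was chronic intermittent hypoxia, a model of the repeated oxygen loss of sleep apnoea. All 4 groups share a mixed C57Bl6 and Balbc background and frozen tissue with RNA integrity numbers over 9. Not given in the sources used here are the promoter of the transgene, the regimen of hypoxia, and the age and sex of the mice. Nothing in the labels ties a library to an animal of its own, so the p-values below reflect library-to-library spread, which may be technical.

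Cells make cholesterol from acetyl-CoA through mevalonate, isoprenoid pyrophosphates, squalene and lanosterol. Because the blood-brain barrier holds back lipoproteins, brain cholesterol is made in place, largely by glia in adults, and neurons clear it as 24-hydroxycholesterol. When membranes of the endoplasmic reticulum are low in sterol, SCAP escorts SREBP-2 to the Golgi for cleavage, and the released fragment raises transcription of nearly every enzyme of the pathway. INSIG proteins hold SCAP back when sterol is plentiful, and LXR receptors, which bind oxysterols, raise the exporters.

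Each library held 19.1 to 25.8 M counts. Reads were counted over whole gene bodies, and read pairs that overlap more than 1 gene were dropped, so a gene lying under another loses its counts. Tubb3 and Nefl of the neuronal markers, Gfap of the astrocyte markers and P2ry12 of the microglial markers were at 0 in every library, and why was not tested. All 8 of 8 markers of hippocampal principal neurons were measured. The summed level of the 14 measured choroid plexus markers, of 15 listed, differed widely between libraries of a group. It ran from 43.0 to 458 CPM (counts scaled by library size) in P301S hypoxia, from 133 to 706 CPM in P301S normoxia, from 37.5 to 553 CPM in WT hypoxia and from 36.4 to 637 CPM in WT normoxia. The 6 libraries lowest in these markers were 2 of P301S hypoxia, 3 of WT hypoxia and 1 of WT normoxia. The median log2 fold change of these markers in hypoxia was -0.71 in P301S and -0.90 in WT, with none called. The 11 myelin and oligodendrocyte markers, from cells that make much of the brain's cholesterol, summed to 1731 to 2776 CPM in P301S hypoxia, 2466 to 3163 CPM in P301S normoxia, 2091 to 2567 CPM in WT hypoxia and 1707 to 3043 CPM in WT normoxia. In whole tissue, fewer cells of a type and less RNA per cell cannot be told apart.

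Of the 32 genes, 31 passed the filter on low counts, among 17788 genes tested in all. Mvd, the enzyme that decarboxylates mevalonate pyrophosphate, had 0 counts in all 23 libraries. Its length is overlapped over 100% by other annotated genes, with the largest overlap from Gm20388, so its level is unknown. Fdps, which makes farnesyl pyrophosphate, is overlapped over 89.7%, with the largest overlap from Gm43738, and kept 201 counts over all libraries. Lss, which closes squalene epoxide into lanosterol, is overlapped over 44.1%, Nr1h3 (LXRα) over 36.6% and Hmgcs1 over 34.6%, so their levels understate expression by an unknown amount. Per kilobase of exon, the level averaged over libraries was highest for Cyp46a1, the neuronal 24-hydroxylase that clears cholesterol, at 50.4 CPM per kb. The endocytic receptor gene Lrp1 followed at 45.6 CPM per kb and Srebf2, the gene of SREBP-2, at 36.7 CPM per kb. Among the synthesis enzymes, Hmgcs1, the HMG-CoA synthase, was highest at 27.3 CPM per kb, above Pmvk (phosphomevalonate kinase) at 21.8 and Fdft1 (squalene synthase) at 19.2 CPM per kb. Intron reads were counted too, so genes with long introns stand higher on this scale than their mature RNA would.

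The 250 bases before the transcription start could be read for 27 of the 32 genes (RefSeq, GRCm38.p6, the assembly of the counts), the first listed start of each. Fdft1, Fdps, Sqle, Stard4 and Abcg1 had no entry. SREBP-2 binds the sterol regulatory element (SRE) together with NF-Y, a factor that binds CCAAT boxes. The CCAAT box (CCAAT, both strands) was present in 14 of the 16 synthesis genes read, all but Acat2 and Dhcr7, and in 20 of the 27 genes, beside 34.5% of 27025 promoters in the same window. The SRE letters TCACNCCAC, on both strands, were found in Hmgcs1 alone, beside 1.04% of all promoters, which says only that these letters are absent from the other windows. The E-box CACGTG, which reads the same on both strands, was in 4 of the 27 genes (Abca1, Hsd17b7, Insig1 and Sc5d), beside 6.05% of all promoters. No match overlapped another. The windows of 4 genes are printed 5′ to 3′ on the gene's strand, because Insig1, Mvk and Ebp carry results below and Hmgcs1 holds the SRE match. Capitals mark CCAAT boxes, written ATTGG where they lie on the other strand, and the SRE match at position -137 of Hmgcs1. They are Hmgcs1 on the plus strand at chr13:119690101-119690350, Insig1 on the plus strand at chr5:28071162-28071411, Mvk on the plus strand at chr5:114444019-114444268 and Ebp on the minus strand at chrX:8193513-8193762.
Hmgcs1: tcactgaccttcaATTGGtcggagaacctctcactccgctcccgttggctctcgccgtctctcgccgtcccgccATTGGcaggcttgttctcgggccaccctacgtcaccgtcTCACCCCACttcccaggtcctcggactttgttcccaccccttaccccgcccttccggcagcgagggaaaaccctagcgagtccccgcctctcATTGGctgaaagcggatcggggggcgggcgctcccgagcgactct
Insig1: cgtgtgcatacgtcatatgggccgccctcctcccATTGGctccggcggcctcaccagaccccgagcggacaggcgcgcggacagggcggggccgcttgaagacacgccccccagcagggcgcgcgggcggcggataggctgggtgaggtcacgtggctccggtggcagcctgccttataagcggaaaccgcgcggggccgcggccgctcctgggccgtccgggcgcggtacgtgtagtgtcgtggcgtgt
Mvk: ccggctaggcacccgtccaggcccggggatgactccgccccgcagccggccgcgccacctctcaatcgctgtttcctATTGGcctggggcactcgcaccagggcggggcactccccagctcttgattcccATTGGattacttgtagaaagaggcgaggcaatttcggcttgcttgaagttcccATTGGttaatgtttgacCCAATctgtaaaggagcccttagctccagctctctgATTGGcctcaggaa
Ebp: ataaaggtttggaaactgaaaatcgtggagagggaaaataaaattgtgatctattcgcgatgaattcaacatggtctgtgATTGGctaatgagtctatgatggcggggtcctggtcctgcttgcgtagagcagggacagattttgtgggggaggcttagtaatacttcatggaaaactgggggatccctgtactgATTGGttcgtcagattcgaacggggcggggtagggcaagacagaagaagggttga

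Mvk held 5 CCAAT boxes in its window, the most of any of the 27 genes, Hmgcs1 held 3, Ebp 2 and Insig1 1. The receptor genes Nr1h2 and Nr1h3, the exporter gene Abca1, Lrp1 and Scap held none.

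**Figure D1:**
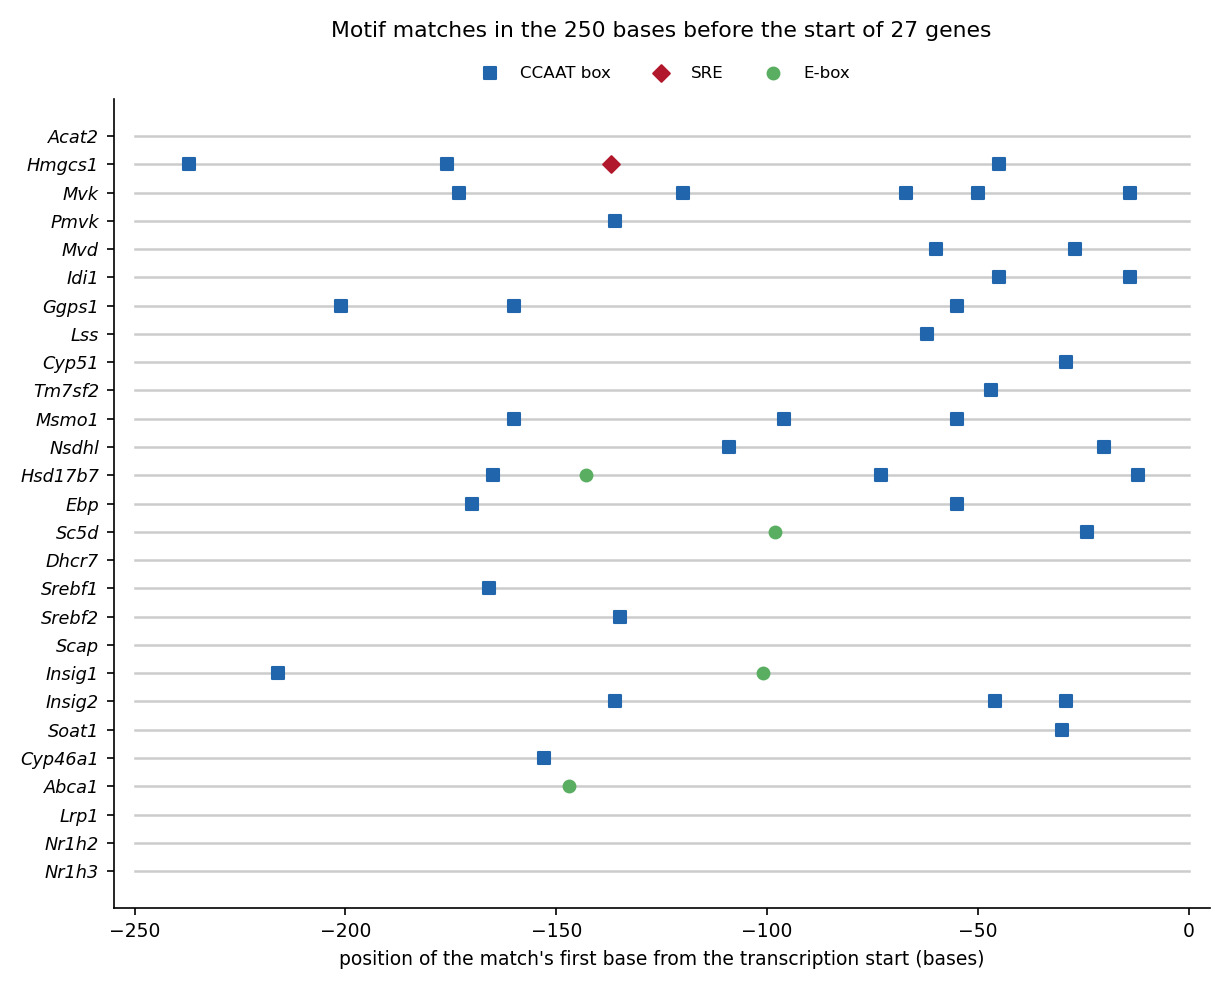
Positions of CCAAT boxes, the SRE letters and E-boxes (symbols) in the 250 bases before the transcription start (horizontal axis, bases) of 27 genes, 1 line per gene. CCAAT boxes stand in 14 of the 16 synthesis genes, and the only SRE match is in Hmgcs1.

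Hypoxia was compared with normoxia first in WT mice. None of the 31 genes passed the test, with 14 of the 17788 genes called in all (0.0787%). A gene was called when the Benjamini-Hochberg adjusted p of edgeR's quasi-likelihood test, two-sided and over all tested genes, was below 0.05. The differences that came nearest were those of Stard4, Fdft1, Insig1 and Sqle, all higher in hypoxia. Of the 18 synthesis genes tested, 15 had a positive log2 fold change, with a median of 0.10, while 51.3% of all tested genes were positive, with a median of 0.0039. At an unadjusted p under 0.05 there were 5 of the 18 (Acat2, Mvk, Fdps, Fdft1 and Sqle), which is 27.8%, beside 11.6% of all genes. With group means taken out, the 153 pairs of synthesis genes had correlations over libraries of -0.55 to 0.84 (median 0.10). Of these pairs 22 were above 0.5, and the median over pairs of all tested genes was -0.003. Counts of synthesis genes by sign or p, here and below, are therefore not counts of independent results. In the myelin, ependymal and mural lists of markers, all or most genes shared a sign in hypoxia in both genotypes, with none called. All 11 myelin and oligodendrocyte markers had negative log2 fold changes, with a median of -0.17 in P301S and -0.14 in WT. So had all 7 tested ependymal markers, with a median of -0.35 in P301S and -0.51 in WT. Markers of mural cells were positive in 7 of 8 in P301S (median 0.10) and in 8 of 8 in WT (median 0.14). The median SE in P301S and WT was 0.13 and 0.13 for myelin, 0.41 and 0.39 for ependymal and 0.19 and 0.18 for mural markers. Meningeal fibroblast markers were positive in 0 of 6 in P301S and in 4 of 6 in WT. Neuronal markers were positive in 7 of 8 in P301S and in 6 of 8 in WT, and astrocyte markers in 6 of 9 and in 5 of 9, with none called. For hypoxia averaged over genotypes, 1 of the 9 astrocyte markers was called higher, beside 1.3% of all tested genes called. Of the 8 hippocampal principal neuron markers, 1 was called higher in hypoxia in P301S and 0 in WT. The part of these cell types in the values of the synthesis genes was not tested.

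Stard4 encodes a soluble carrier that moves sterol between the plasma membrane and the endoplasmic reticulum, and it is itself a target of SREBP-2. It had 21.9, 27.8 and 28.9 CPM (lowest, median, highest of 6) in WT hypoxia, against 17.97, 20.5 and 23.4 CPM in WT normoxia. All but 2 of the hypoxia libraries lay above every normoxia library. The log2 fold change was 0.34 (SE 0.077), with an adjusted p of 0.0871. The call changed with the processing: Stard4 passed with the trend on gene length and GC content taken out (0.34, adjusted p = 0.0408) and in DESeq2 (0.34, adjusted p = 0.0102). It also passed without WT normoxia replicate 1 or without WT hypoxia replicate 2, and over all libraries left out in turn the adjusted p ran from 0.0291 to 0.186. Without the 6 libraries lowest in choroid plexus markers, which takes out 3 of the 6 WT hypoxia libraries, the fold change was 0.22 (adjusted p = 0.906).

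Insig1, the anchor that holds SCAP in the endoplasmic reticulum when sterol is plentiful and is itself a target of SREBP-2, was the only one of the 31 genes whose WT groups did not overlap, beside 0.691% of all tested genes. It had 47.6, 53.2 and 60.8 CPM in WT hypoxia, against 33.7, 44.3 and 46.5 CPM in WT normoxia. The lowest hypoxia library stood just above the highest normoxia library. The log2 fold change was 0.32 (SE 0.101, adjusted p = 0.195). It was 0.38 when only the hypoxia libraries with 31 in the title were set against the normoxia libraries with 66, and 0.15 with those with 32. These numbers are not explained by the labels. No number occurs in both WT conditions, so what they stand for and hypoxia cannot be told apart in WT. Insig2, the second anchor, had 49.8 to 59.4 CPM in WT hypoxia and 52.9 to 62.5 CPM in WT normoxia, and its log2 fold change was -0.07 (95% interval -0.17 to 0.03).

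Squalene synthase and the enzyme after it had like differences in WT, neither called. Fdft1, which joins farnesyl pyrophosphate into squalene, had 74.5, 91.9 and 96.9 CPM in WT hypoxia, against 73.9, 77.6 and 80.4 CPM in WT normoxia. Of the 6 hypoxia libraries, 5 stood above every normoxia library and replicate 1 lay among them. Its log2 fold change was 0.20 (SE 0.059, adjusted p = 0.162). Sqle, the epoxidase that uses molecular oxygen on squalene, had 50.8, 60.8 and 68.4 CPM in WT hypoxia, against 49.8, 52.3 and 55.3 CPM in WT normoxia. Replicate 1 was again the lowest of the hypoxia libraries and lay within the normoxia range. That library had the fewest counts of the 23, at 19.1 M, and is among the 6 lowest in choroid plexus markers. The log2 fold change of Sqle was 0.20 (SE 0.0646, adjusted p = 0.22).

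The other enzymes of the mevalonate arm gave smaller values in WT. The log2 fold change was 0.18 for Mvk (mevalonate kinase), 0.17 for Hmgcs1, 0.15 for Acat2 (the cytosolic thiolase), 0.12 for Idi1 (isopentenyl pyrophosphate isomerase) and 0.01 for Ggps1, which makes the geranylgeranyl donor, and -0.05 for Pmvk. After squalene, Lss and Hsd17b7 (the sterol 3-keto reductase) each had 0.13, and the lanosterol demethylase Cyp51, which also uses oxygen, had 0.02 (95% interval -0.16 to 0.21). The C4-methyl oxidase Msmo1 had 0.08, Nsdhl (the C4 decarboxylase) 0.07, Dhcr7 0.07 and Tm7sf2 (a sterol C14 reductase) 0.05. The desaturase Sc5d had -0.02 and the isomerase Ebp -0.11. Adjusted p was at least 0.336 for each of these.

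Fdps gave the largest fold change of the set on very few reads. It had 0.28, 0.43 and 0.80 CPM in WT hypoxia, against 0.12, 0.30 and 0.39 CPM in WT normoxia. In P301S it had 0.16, 0.45 and 0.67 CPM in hypoxia, against 0.13, 0.20, 0.21, 0.27 and 0.30 CPM in normoxia. The groups overlapped in both genotypes. Averaged over genotypes, the log2 fold change was 0.88 (SE 0.239, adjusted p = 0.0685). It was 0.90 (adjusted p = 0.0448) with the length and GC trend taken out, and it passed without P301S hypoxia replicate 1 (adjusted p = 0.0337). These reads come from the small share of Fdps that no other gene overlaps, with no strand used in the counting, so they do not stand for the whole gene.

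In P301S mice, the synthesis genes had no common direction in hypoxia. None of the 31 genes was called, with 54 of the 17788 genes called in all (0.304%), and no gene of the set had groups that did not overlap (2.13% of all tested genes). Of the 18 synthesis genes, 9 had a positive and 9 a negative log2 fold change, with a median of -0.0078. Stard4 had 24.1, 26.3 and 29.6 CPM in P301S hypoxia, against 24.6, 27.6, 27.6, 27.8 and 29.5 CPM in P301S normoxia. Both groups covered the same range, and the log2 fold change was -0.04 (95% interval -0.20 to 0.12). Insig1 had 32.3, 44.1 and 48.9 CPM in P301S hypoxia, against 37.5, 43.6, 45.5, 48.3 and 57.4 CPM in P301S normoxia. The hypoxia group held the lowest library and the normoxia group the highest, with a log2 fold change of -0.12 (95% interval -0.33 to 0.08). Fdft1 and Sqle each had 0.04 in P301S. The furthest from 0, beside Fdps, were Cyp51 at -0.18 (SE 0.102, adjusted p = 0.47) and Nsdhl at 0.14 (SE 0.0677, adjusted p = 0.361).

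**Figure D2:**
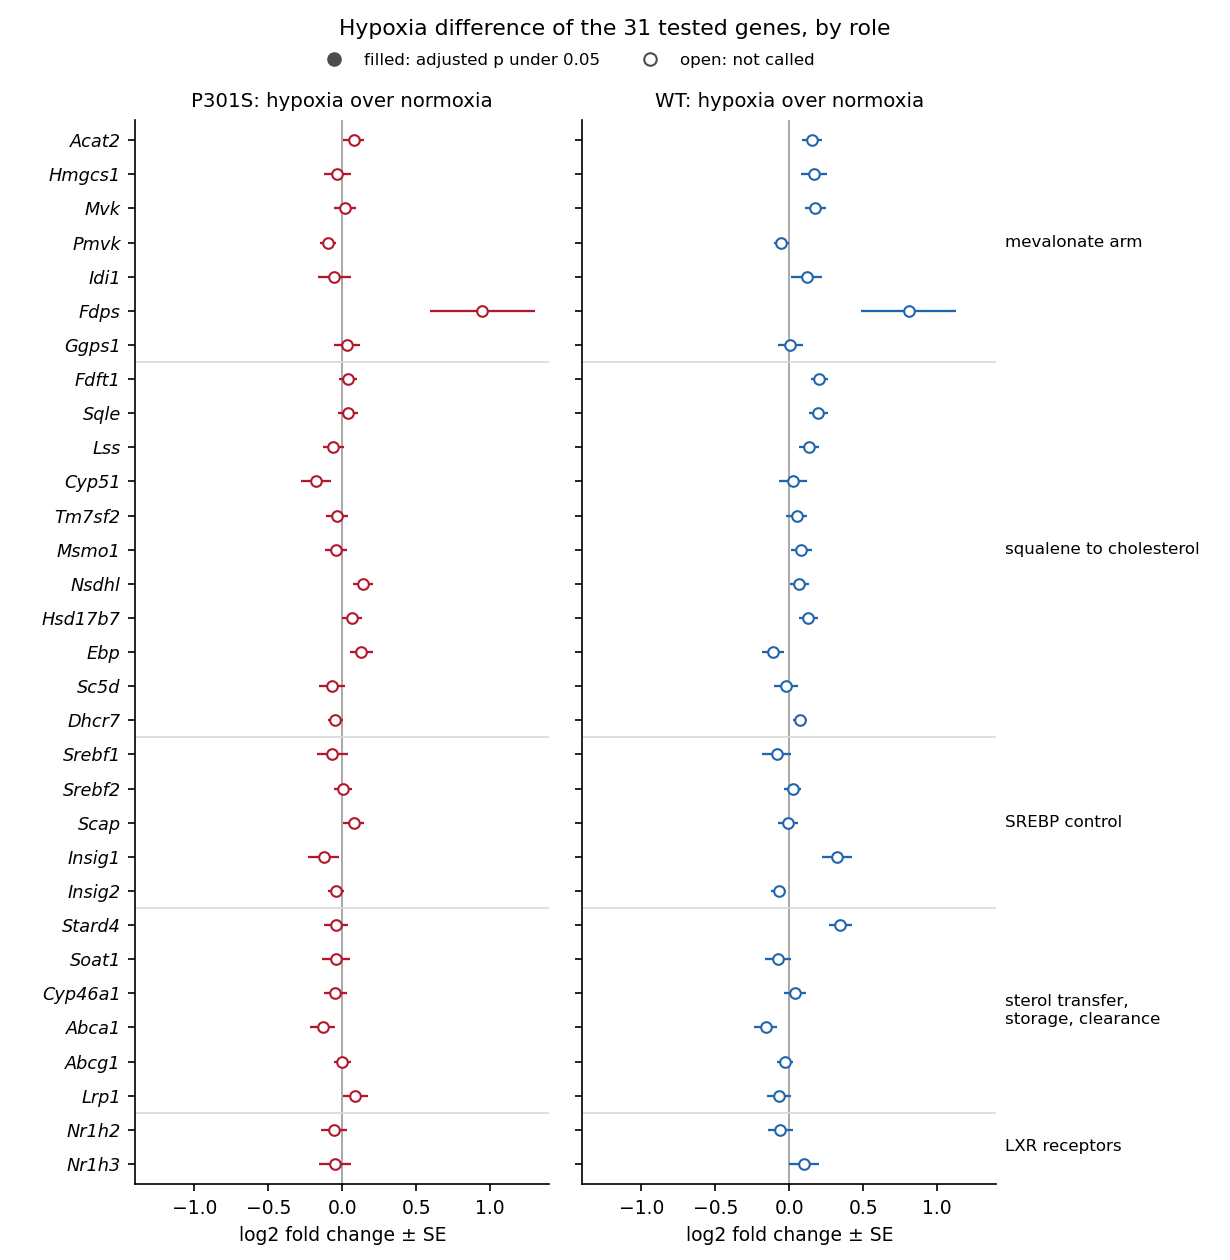
Log2 fold change of hypoxia over normoxia (horizontal axis, points, with SE as bars) of the 31 tested genes, ordered by role, in P301S (left) and WT (right). All points are open, since no gene was called, and 9 of 18 synthesis genes lie right of 0 in P301S, against 15 of 18 in WT.

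Whether hypoxia acted differently in the 2 genotypes was tested by the interaction, the hypoxia difference in P301S minus that in WT. No gene of the set and no gene of the 17788 was called (0%). At an unadjusted p under 0.05 there were 3 of the 31 genes and 1650 of all genes (9.28%), and DESeq2 called 48 genes, none of the set. The 3 genes were Stard4 at -0.39 (SE 0.111, adjusted p = 0.287), Insig1 at -0.45 (SE 0.146, adjusted p = 0.364) and Ebp at 0.24 (SE 0.108, adjusted p = 0.505). Of the 18 synthesis genes, 14 had a negative interaction, with a median of -0.10, while 49.2% of all tested genes were positive, with a median of -0.0033. The difference between the genotypes was thus not shown for any single gene.

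A summary over the pathway was taken for each library as the median, over the 18 synthesis genes, of log2 CPM minus the gene's mean. It was -0.10, 0.0012 and 0.04 (lowest, median, highest) in P301S hypoxia, and -0.11, -0.06, -0.04, -0.03 and 0.04 in P301S normoxia. It was -0.05, 0.11 and 0.19 in WT hypoxia and -0.06, -0.02 and 0.02 in WT normoxia. In WT hypoxia, replicates 2 to 5 stood above every other library of the 23, while replicates 1 and 6 lay within the range of the other groups. In WT hypoxia replicates 2 and 4, 16 of the 18 genes were above their mean, against 15 in replicate 5 and 12 in replicate 3. Replicates 1 and 6 had 10 and 6 of 18. The highest number in the other groups was 12 of 18, in P301S hypoxia replicate 6. The 4 high libraries carry both 31 and 32 in their titles, as do the 2 others. Of these 4, replicates 4 and 5 are among the 6 libraries lowest in choroid plexus markers and replicates 2 and 3 are not. Of the 2 others, replicate 1 is among those 6 and replicate 6 is not. Over the alternatives, the median log2 fold change of the synthesis genes in WT ran from 0.06 (title number 32 against 66) to 0.13 (31 against 66), and it was 0.08 without the 6 libraries.

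**Figure D3:**
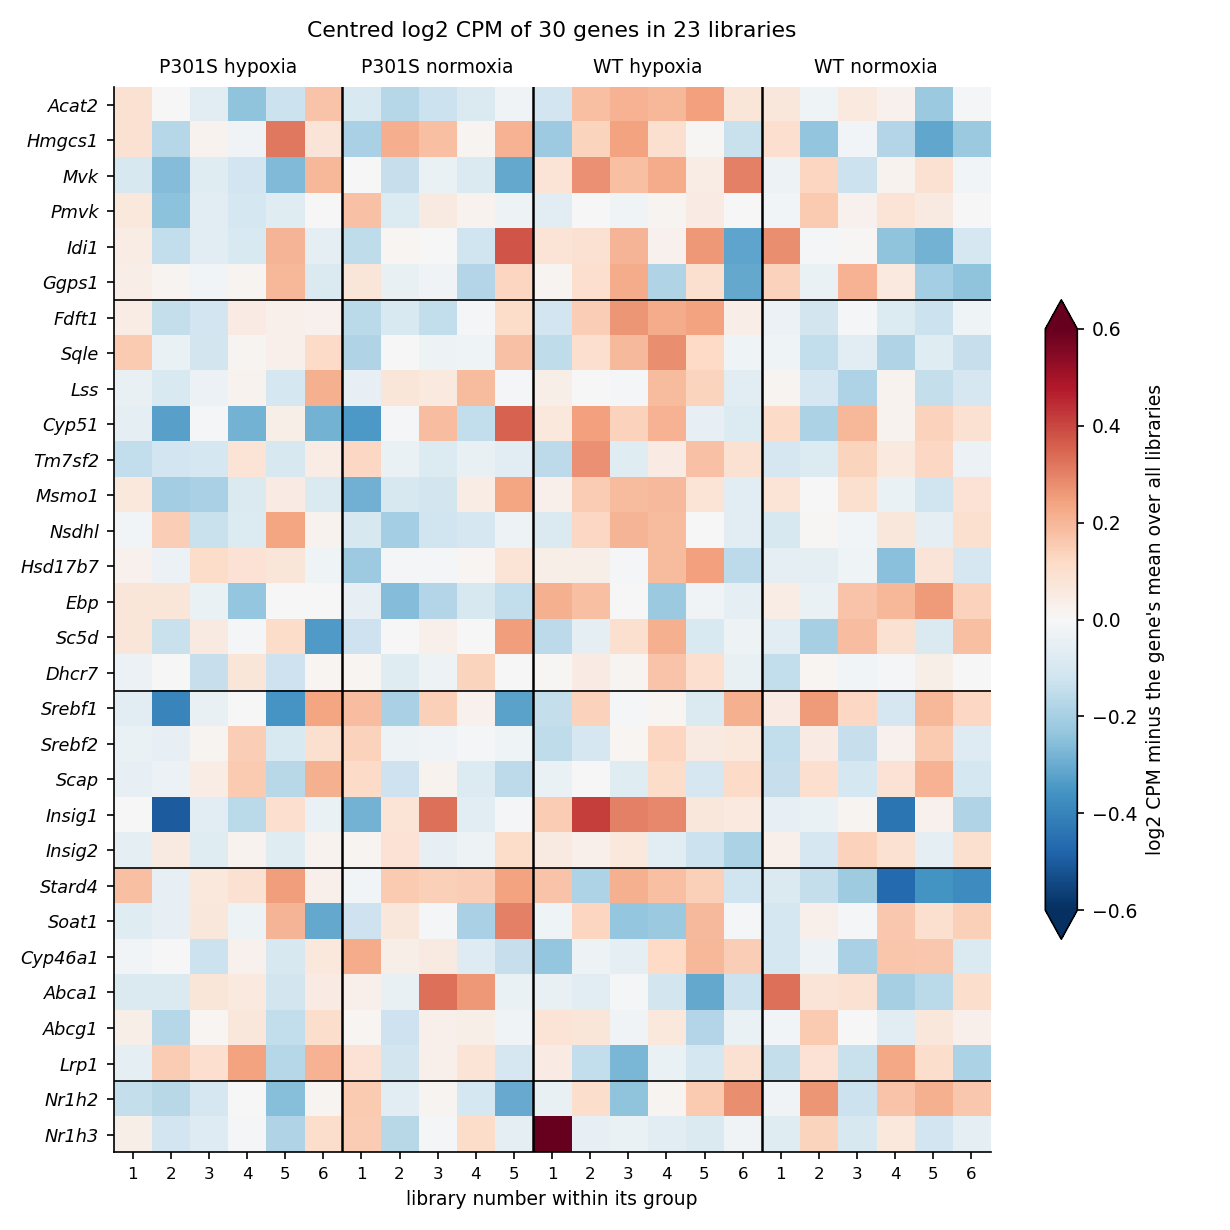
Log2 CPM minus the gene's mean over all libraries (colour) of 30 genes (rows, by role, Fdps left out for its low counts) in 23 libraries (columns, by group). The warm block of synthesis genes in WT hypoxia covers replicates 2 to 5, least fully replicate 3, and the 1 value beyond the colour scale is Nr1h3 in WT hypoxia replicate 1.

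P301S was compared with WT in normoxia next. Stard4 rose and Ebp fell in P301S, 2 of the 31 genes, while 1054 of the 17788 genes were called (5.93%). Both genes also had groups that did not overlap in CPM, beside 3.34% of all tested genes. Stard4 had 24.6, 27.6, 27.6, 27.8 and 29.5 CPM in P301S normoxia, against 17.97, 20.5 and 23.4 CPM in WT normoxia. Every P301S library stood above every WT library. Its log2 fold change was 0.41 (SE 0.0803, adjusted p = 0.0058), and the call held in every alternative and with any library left out, with adjusted p up to 0.0361. WT normoxia replicates 1 to 5 all carry 66 in their titles and replicate 6 carries 37, while each P301S library has a number of its own. No number occurs in both genotypes, so what the numbers stand for and genotype cannot be told apart. Leaving out 1 library at a time cannot show this. The WT normoxia libraries are the same ones that Stard4 in WT hypoxia was set against, so the 2 differences share them. WT normoxia was the low group of the 4: Stard4 averaged 26.6 ± 1.99 CPM in P301S hypoxia, 27.4 ± 1.75 CPM in P301S normoxia, 26.3 ± 3.03 CPM in WT hypoxia and 20.7 ± 2.13 CPM in WT normoxia (SD, n = 6, 5, 6 and 6).

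Ebp, the isomerase that moves the ring double bond from C8 to C7, had 10.7, 11.4, 11.6, 12.0 and 12.4 CPM in P301S normoxia, against 12.5, 14.3 and 15.3 CPM in WT normoxia. The highest P301S library stood just below the lowest WT library, and the log2 fold change was -0.28 (SE 0.0783, adjusted p = 0.0379). The call was lost in 4 alternatives, with adjusted p of 0.0586 to 0.07, and without any one of WT normoxia replicates 3 to 6 or P301S normoxia replicates 2 to 5, where the adjusted p reached 0.117. The promoter window printed for Ebp holds 2 CCAAT boxes, at positions -170 and -55.

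No other gene of the set was called in that comparison. Of the 18 synthesis genes, 9 were positive and 9 negative, with a median log2 fold change of -0.01, beside 52.2% positive and a median of 0.01 over all tested genes. Hmgcs1 had 109, 126, 141, 144 and 145 CPM in P301S normoxia, against 100.3, 109 and 134 CPM in WT normoxia. The groups overlapped, and the log2 fold change was 0.23 (SE 0.0932, adjusted p = 0.141). Fdps, on its few reads, had -0.37 (95% interval -1.10 to 0.36). Lss had 0.14, Sqle 0.10 and Idi1 0.08, all uncalled, while Mvk had -0.12 and Nsdhl -0.11. Among the regulators, Srebf2 had 0.03 (95% interval -0.09 to 0.15), Scap -0.06 (-0.20 to 0.08), Insig1 0.13 (-0.08 to 0.33) and Srebf1 -0.13 (-0.34 to 0.07). Choroid plexus markers had a median log2 fold change of -0.44 and microglial markers of -0.21 in the same comparison, with no gene of either list called. Of the 8 hippocampal principal neuron markers, 1 was called lower in P301S, and the median of that list was -0.01.

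In hypoxia, Mvk fell in P301S, the only one of the 31 genes called, with 343 of the 17788 genes called in all (1.93%). Mvk phosphorylates mevalonate, the step after the one that statins block. It had 16.5, 18.5 and 22.8 CPM in P301S hypoxia, against 20.5, 22.9 and 24.5 CPM in WT hypoxia. Of the 6 P301S libraries, 5 stood below every WT library, and replicate 6 lay in the WT range. No gene of the set had groups that did not overlap (1.93% of all tested genes). The log2 fold change was -0.28 (SE 0.0731, adjusted p = 0.0472). The call was lost in 3 alternatives, with adjusted p of 0.0732 to 0.199, and with any one of 12 libraries left out, where the adjusted p reached 0.121. These were P301S hypoxia replicates 1 to 5, P301S normoxia replicates 2 and 3, WT hypoxia replicates 2, 3, 4 and 6, and WT normoxia replicate 6.

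Insig1 had a fold change of like size in hypoxia. The values of 32.3, 44.1 and 48.9 CPM in P301S hypoxia stood against 47.6, 53.2 and 60.8 CPM in WT hypoxia. Only the highest P301S library reached the WT range, and the log2 fold change was -0.32 (SE 0.101, adjusted p = 0.0952), and it passed in DESeq2 (-0.32, adjusted p = 0.044). Of the 18 synthesis genes, 16 had a negative log2 fold change, all 11 from squalene to cholesterol among them, with a median of -0.07, while 50.1% of all tested genes were positive, with a median of 0.00061. Cyp51 had 37.7, 42.2 and 48.5 CPM in P301S hypoxia, against 44.7, 50.8 and 56.1 CPM in WT hypoxia, with a log2 fold change of -0.24 (SE 0.0972, adjusted p = 0.19). Msmo1 had -0.18, and Acat2 and Fdft1 had -0.16 each, all uncalled. The WT hypoxia libraries are those set against WT normoxia above, so the negative values here and the positive values there share them.

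**Figure D4:**
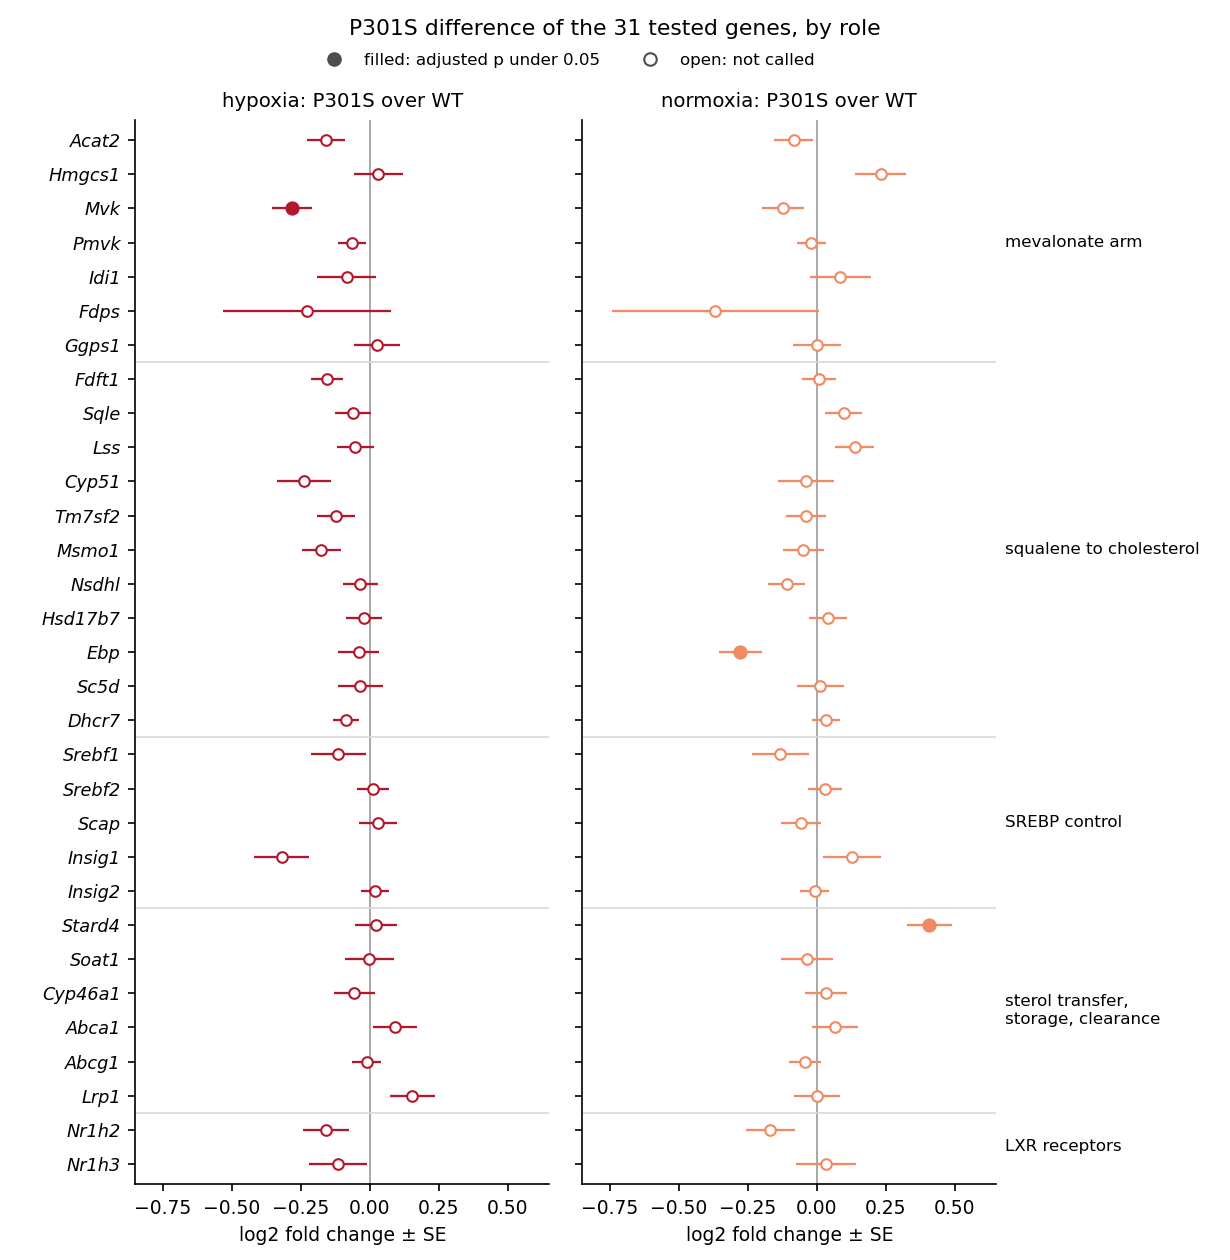
Log2 fold change of P301S over WT (horizontal axis, points, with SE as bars) of the 31 tested genes, ordered by role, in hypoxia (left) and normoxia (right). Filled points are called: Mvk in hypoxia, and Ebp and Stard4 in normoxia.

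**Figure D5:**
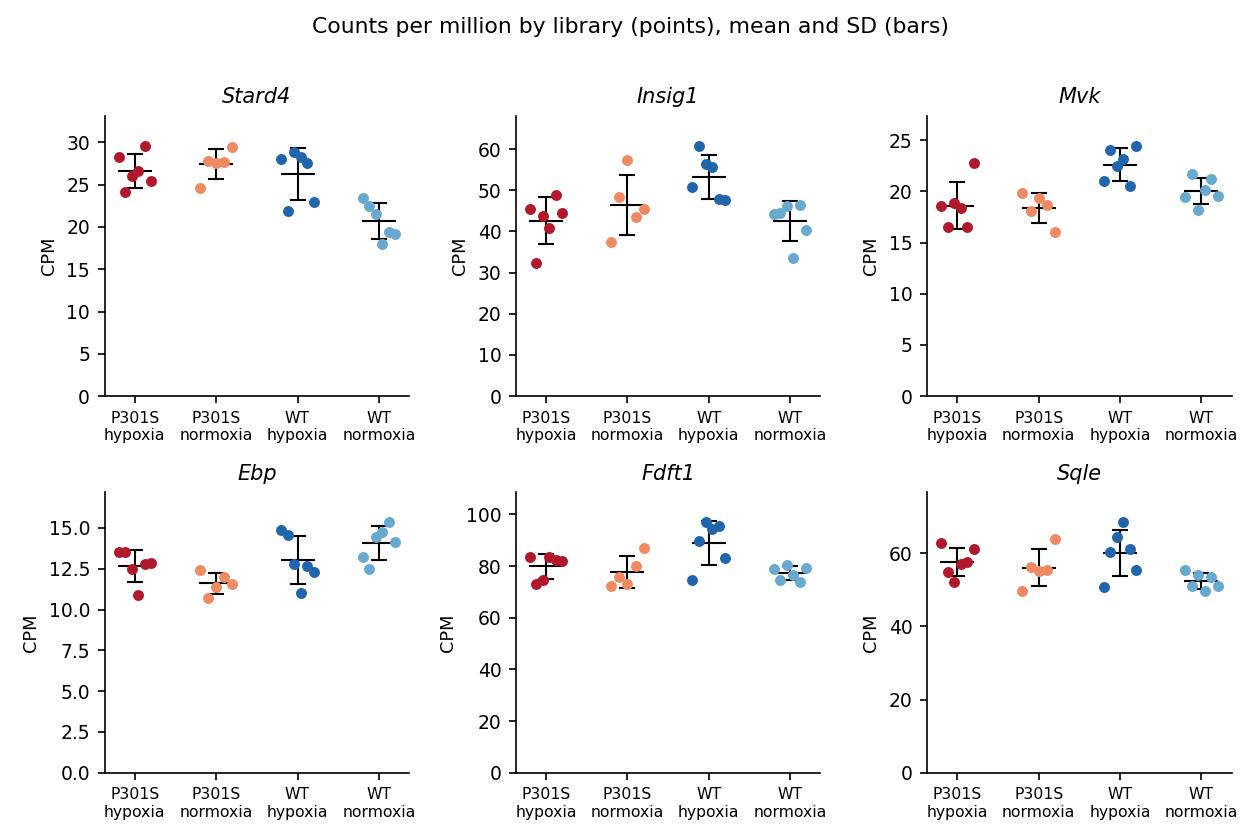
CPM of each library (points) with the group mean and SD (bars) for Stard4, Insig1, Mvk, Ebp, Fdft1 and Sqle in P301S hypoxia, P301S normoxia, WT hypoxia and WT normoxia, vertical axes from 0. By group mean, Stard4 is lowest in WT normoxia, while Insig1, Mvk, Fdft1 and Sqle are highest in WT hypoxia with libraries that overlap other groups.

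Averaging over conditions or genotypes uses all 23 libraries. P301S averaged over conditions called 2 of the 31 genes, with 2280 of 17788 called in all (12.8%), so the share of the set, 2 of 31, lay below that of all genes. Mvk fell, with a log2 fold change of -0.20 (SE 0.0531, adjusted p = 0.014), and Stard4 rose, with 0.21 (SE 0.0555, adjusted p = 0.0126). The average for Stard4 joins 0.41 in normoxia with 0.02 in hypoxia (95% interval -0.13 to 0.17), so it does not stand for both conditions. Mvk averaged 18.6 ± 2.30 CPM in P301S hypoxia and 22.6 ± 1.59 CPM in WT hypoxia, and 18.4 ± 1.49 CPM in P301S normoxia and 20.03 ± 1.27 CPM in WT normoxia (SD, n = 6, 6, 5 and 6). Ebp had -0.16 (adjusted p = 0.054) and Nr1h2 (LXRβ) -0.16 (adjusted p = 0.0743). Hypoxia averaged over genotypes called none of the 31 genes, with 232 of 17788 called in all (1.3%) and 8 of the 31 at an unadjusted p under 0.05 (25.8%, beside 15.7% of all genes).

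Srebf2, Scap and Srebf1 were called in no comparison. Srebf2 averaged 266 ± 17.2 CPM in P301S hypoxia, 266 ± 13.5 CPM in P301S normoxia, 264 ± 19.4 CPM in WT hypoxia and 260.2 ± 21.7 CPM in WT normoxia (SD, n = 6, 5, 6 and 6). The hypoxia difference was 0.0043 in P301S (95% interval -0.11 to 0.12) and 0.02 in WT (-0.09 to 0.13). Scap, at 93.3 to 122 CPM over all libraries, had 0.08 in P301S and -0.01 in WT. Srebf1, which mainly drives fatty acid genes, averaged 73.8 ± 12.2 CPM in P301S hypoxia, 77.3 ± 11.4 CPM in P301S normoxia, 79.9 ± 7.52 CPM in WT hypoxia and 84.8 ± 7.10 CPM in WT normoxia. SREBP activity depends on cleavage of the protein, which RNA levels do not measure.

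Genes of transfer, storage and clearance beside Stard4 were uncalled as well. Cyp46a1 averaged 162 ± 8.22 CPM in P301S hypoxia, 168 ± 16.2 CPM in P301S normoxia, 169 ± 18.5 CPM in WT hypoxia and 164 ± 17.0 CPM in WT normoxia (SD, n = 6, 5, 6 and 6). Its hypoxia difference was -0.05 in P301S and 0.04 in WT, and neither was called. Abca1, the exporter that loads sterol onto apolipoproteins, averaged 67.03 ± 3.96 CPM in P301S hypoxia against 73.5 ± 9.16 CPM in P301S normoxia, and 62.9 ± 4.42 CPM in WT hypoxia against 70.3 ± 9.55 CPM in WT normoxia. Its hypoxia difference was -0.13 in P301S and -0.16 in WT, and -0.15 averaged over genotypes (95% interval -0.26 to -0.03, adjusted p = 0.218). The hypoxia difference of the second exporter gene, Abcg1, had a 95% interval of -0.11 to 0.11 in P301S and of -0.14 to 0.07 in WT. That of Soat1, which esterifies cholesterol for storage, was -0.04 in P301S and -0.08 in WT, and that of Lrp1 was 0.09 in P301S and -0.07 in WT. The LXR receptor gene Nr1h2 averaged 41.3 ± 2.999 CPM in P301S hypoxia and 46.2 ± 5.66 CPM in WT hypoxia, and 42.9 ± 4.95 CPM in P301S normoxia and 48.2 ± 4.88 CPM in WT normoxia. Its P301S difference was -0.16 in hypoxia and -0.17 in normoxia, neither called.

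Neighbouring pathways were read from 5 further lists. None of their genes was called for hypoxia in P301S or in WT, for P301S in hypoxia or for the interaction. Of all tested genes, 0.304%, 0.0787%, 1.93% and 0% were called in these. The counts below stand beside 5.93% of all tested genes called for P301S in normoxia and 12.8% for P301S averaged over conditions. Among 16 fatty acid synthesis genes under SREBP control, Fads2, the delta-6 desaturase, fell in P301S in normoxia. It averaged 119 ± 8.56 CPM in P301S normoxia and 139 ± 7.36 CPM in WT normoxia (SD, n = 5 and 6), with a log2 fold change of -0.22 (SE 0.0525, adjusted p = 0.0157). Of 11 genes of the non-sterol isoprenoid branch, Pdss2, a subunit of the enzyme that makes the ubiquinone side chain, rose by 0.25 (SE 0.0478, adjusted p = 0.005) in P301S in normoxia. Rce1, the protease that trims prenylated proteins, fell by 0.40 (SE 0.0955, adjusted p = 0.0173), with 10.7 ± 1.24 CPM in P301S normoxia and 14.1 ± 1.74 CPM in WT normoxia (SD, n = 5 and 6).

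Mbtps2, the site-2 protease that releases SREBP from the membrane, was the only called gene of 8 genes of SREBP proteases and sterol-regulated degradation. It rose in P301S in normoxia, with 45.5 ± 2.83 CPM in P301S normoxia and 38.6 ± 1.62 CPM in WT normoxia (SD, n = 5 and 6) and a log2 fold change of 0.24 (SE 0.0539, adjusted p = 0.0132). Averaged over conditions it was 0.20 (SE 0.0373, adjusted p = 0.0011). Of 19 tested genes of sterol transport, storage and oxidation, of 22 listed, 3 were called for P301S averaged over conditions, beside 12.8% of all tested genes. None was called in normoxia alone. The late endosomal sterol carrier gene Stard3 fell by 0.19 (adjusted p = 0.0237) and Tmem97, the sigma-2 receptor gene, fell by 0.29 (adjusted p = 0.0296). Nceh1, a cholesteryl ester hydrolase gene, rose by 0.11 (adjusted p = 0.0297). Fads2, Pdss2 and Rce1 were called averaged over conditions too. In hypoxia alone the P301S difference was -0.11 for Fads2, -0.29 for Rce1 and -0.02 for Pdss2 (SE 0.0457). The averaged value of Pdss2 therefore does not stand for both conditions. None of the 5 LXR target genes was called in any comparison.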

How the data were processed

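Whole-hippocampus RNA was measured in 23 libraries, grouped by their genotype and condition labels. Replicate numbers follow accession order and only name a library. The authors counted read pairs with featureCounts 1.6.2 against the Ensembl release 90 genes of GRCm38, per the file headers, and deposited these counts without normalization. Counting ran over whole gene bodies with no strand setting, on alignments whose names mark duplicates as removed. Removal of duplicates can lower short abundant transcripts more than others. The submitters' processing notes name HISAT2, mm10, featureCounts and DESeq2 1.6.3.

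Tests used R 4.3.3 and edgeR 4.0.16. Genes were kept by filterByExpr (minimum count 10), libraries scaled by TMM factors (0.961 to 1.03), and a robust quasi-likelihood model, with a mean for each of the 4 groups, took in all 23 libraries. From it 7 contrasts were tested two-sided, with Benjamini-Hochberg adjustment over 17788 genes, and called below 0.05. SE is the fold change divided by the square root of its F statistic. The 95% intervals were made from the SE by a normal approximation, so they are narrower than the F test implies. Abca1 for hypoxia in WT, for example, had an interval of -0.317 to -0.003 at an unadjusted quasi-likelihood p of 0.0572. Log2 CPM used a prior count of 2. Alternatives were DESeq2 1.42.0, RLE scaling, no count filter, non-robust dispersions, only the groups compared, offsets for gene length and GC content (known for 17746 genes), a choroid plexus score as covariate, leaving out the 6 libraries lowest in it, the numbers in the titles, and each library left out. The edgeR steps were tested on simulated data. All listed genes may be named, and from each neighbouring list up to 4 with the lowest p. The members, lists and choices were fixed with earlier results of these data known.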

Additional observations from a re-analysis of the deposited data

Results flagged for a closer look

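A library lying far from the others of its group, by Dixon's gap test at the 95% level, was looked for in 124 groups of 5 or 6 libraries (31 genes in 4 groups). Chance flags about 1 in 20 groups, and 7 were flagged. Nr1h3 had 10.6 CPM in WT hypoxia replicate 1, where the next library had 6.85 CPM. Srebf2 had 289.6 CPM in P301S normoxia replicate 1, with the next at 261.5 CPM, and Tm7sf2 had 21.65 CPM in the same library, with the next at 19.33 CPM. Idi1 had 16.86 CPM in P301S normoxia replicate 5, with the next at 13.06 CPM. Lss had 12.79 CPM in P301S hypoxia replicate 6, with the next at 11.16 CPM. On the low side, Acat2 had 26.9 CPM in WT normoxia replicate 5, with the next at 30.87 CPM, and Dhcr7 had 39.43 CPM in WT normoxia replicate 1, with the next at 43.14 CPM. None of these 7 genes was called in any comparison.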

How the results depend on the processing

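Stard4 for P301S in normoxia, and Mvk and Stard4 for P301S averaged over conditions, kept direction and call in every alternative and with each library left out. None of these fits addressed the title numbers, since no number occurs in both genotypes. The count of called genes of the set was 0 for hypoxia in P301S and for the interaction throughout. For hypoxia in WT it became 1 (Stard4) with the length and GC trend removed and in DESeq2, and 0 to 1 with a library left out. For P301S in normoxia it became 1 (Ebp lost) without the count filter, with that trend removed, without the 6 libraries lowest in choroid plexus markers and on the 2 groups alone, and 1 to 2 with a library left out. For P301S in hypoxia it became 0 (Mvk lost) without the filter, without the 6 libraries and on the 2 groups alone, 2 in DESeq2 (Insig1 added), and 0 to 1 with a library left out. For hypoxia averaged over genotypes it became 1 (Fdps) with the trend removed and 0 to 1 with a library left out. For P301S averaged over conditions it became 4 in DESeq2 and without P301S normoxia replicate 1 (Ebp and Nr1h2 added), within 2 to 4 with a library left out. The 2-group and reduced fits use fewer libraries, and the fit without the filter adjusts over more genes. The cause of the shifts was not tested for any alternative. No gene whose fold change was followed over the alternatives changed sign, but the median of the synthesis genes did where it lay near 0. For hypoxia in P301S (-0.0078) it ran from -0.03 to 0.03 over the alternatives and from -0.03 to 0.04 with a library left out, and for P301S in normoxia (-0.01) it ran from -0.04 to 0.01 with a library left out. Over all genes, the number called moved by over 1.5 times in every comparison under some alternative. Without the 6 libraries and in DESeq2, the 14 for hypoxia in WT became 0 and 155, the 54 for hypoxia in P301S 33 and 326, the 1054 for P301S in normoxia 367 and 1608, and the 343 for P301S in hypoxia 8 and 807. The 232 for hypoxia averaged over genotypes became 55 and 626, the 2280 for P301S averaged over conditions 1271 and 2758, and the 0 for the interaction 0 and 48. With the trend removed these 7 counts, in the same order, were 22, 165, 454, 135, 441, 1056 and 1. Without the filter, hypoxia in WT had 6, P301S in normoxia 629, P301S in hypoxia 182, hypoxia averaged over genotypes 124 and the interaction 3. On the 2 groups alone hypoxia in WT had 4, P301S in normoxia 367 and P301S in hypoxia 152. With the choroid plexus covariate hypoxia in WT had 25, hypoxia averaged over genotypes 135 and the interaction 7. By title number, hypoxia in WT had 2 (31 against 66) and 5 (32 against 66). Leaving out single libraries moved these counts too. Hypoxia in WT ran from 2 to 34 (without WT hypoxia replicate 2). Hypoxia in P301S was 2 without P301S normoxia replicate 3 or 4 and 143 without replicate 1. P301S in normoxia was 330 without P301S normoxia replicate 2 and 2008 without WT normoxia replicate 1. P301S in hypoxia was 85 without WT hypoxia replicate 2 and 610 without P301S hypoxia replicate 6. Hypoxia averaged over genotypes reached 353 without WT normoxia replicate 4, and it was down to 79 when P301S normoxia replicate 4 was dropped. The range was 1528 to 2869 for P301S averaged over conditions and 0 to 6 for the interaction. No paired analysis was possible because the replicate numbers follow accession order and pair no libraries. Fdps and Mvd could not be measured as whole genes because reads shared with the genes that overlap them were not counted, which more depth would not change.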
